A study of Homo sapiens with 2 samples.

Results

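Chromatin accessibility was described at the loci of 10 core circadian clock genes, CLOCK, BMAL1, PER1, PER2, PER3, CRY1, CRY2, DBP, TEF and NFIL3, out of 20033 annotated protein-coding genes. The members were chosen by name, and a locus was the annotated gene body with 20 kb either side. The data came from CAMA-1, an established breast cancer cell line that the labels describe as epithelial and from mammary gland, grown as adherent culture without any treatment. Open DNA was tagged with Tn5, a transposase that cuts and ligates adapters where chromatin is accessible (ATAC-seq), in 2 biological replicates of 50000 cells each. Both replicates belong to 1 condition and 1 cell line, so no groups were compared and no test was possible. The labels give neither a synchronisation of the cells nor a time of harvest, so no phase of the daily cycle can be attached to any value.

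The circadian clock is a loop of transcription factors that nearly every cell carries. CLOCK and BMAL1 bind DNA as a pair at E-boxes and switch on the PER and CRY genes, whose proteins return to the nucleus and repress the pair. Further arms run through the D-box, where DBP and TEF activate and NFIL3 represses, and through the ROR element (RORE), where ROR and REV-ERB receptors act on BMAL1 and other genes. Clock genes are expressed in the epithelium of the mammary gland.

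Of the sequences under open chromatin at these genes, those that carry several clock motifs close together, or a motif next to a transcription start site (TSS), are shown first. Bases in capitals are exact matches to the E-box CACGTG, the variant E′-box CACGTT, the D-box TTATGTAA, the RORE TAGGTCA or the cAMP response element (CRE) TGACGTCA, each searched on both strands. No motif contains another, although matches may share bases. The first set holds stretches that run from the first to the last of several matches, with 10 bases either side, read on the strand of the gene from hg38. None of the first 3 touches an exon of its gene, and the last lies in an intron of CRY1.
PER3, chr1:7783857-7784131, plus strand: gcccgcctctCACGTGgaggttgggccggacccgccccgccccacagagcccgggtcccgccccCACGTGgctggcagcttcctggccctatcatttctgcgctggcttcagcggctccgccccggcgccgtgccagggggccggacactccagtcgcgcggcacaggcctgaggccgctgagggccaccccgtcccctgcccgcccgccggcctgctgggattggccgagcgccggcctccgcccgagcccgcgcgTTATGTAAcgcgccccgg
PER1, chr17:8156529-8156738, minus strand: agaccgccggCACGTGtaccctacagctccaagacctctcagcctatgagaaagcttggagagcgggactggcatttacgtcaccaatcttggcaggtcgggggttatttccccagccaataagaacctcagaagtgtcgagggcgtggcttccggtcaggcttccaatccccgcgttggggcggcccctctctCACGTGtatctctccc
TEF, chr22:41381318-41381454, plus strand: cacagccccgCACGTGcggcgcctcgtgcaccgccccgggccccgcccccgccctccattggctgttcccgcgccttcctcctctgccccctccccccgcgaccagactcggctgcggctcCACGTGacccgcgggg
CRY1, chr12:107027731-107027807, minus strand: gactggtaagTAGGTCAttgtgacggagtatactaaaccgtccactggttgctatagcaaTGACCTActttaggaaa

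The second set holds single matches with 10 bases either side, written in the direction in which the motif reads as spelled above. They are matches close to a TSS in members for which no stretch at a TSS is shown, together with the D-boxes of PER2, TEF and NFIL3, and they show how the flanks differ around the same core.
BMAL1 RORE, chr11:13277810-13277836, plus strand: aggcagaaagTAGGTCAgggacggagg
NFIL3 RORE, chr9:91423825-91423851, plus strand: tgtgtgttagTAGGTCAgttccgagcg
CRY2 RORE, chr11:45847400-45847426, plus strand: tgcggcgtcaTAGGTCActgggcgggc
CRY1 E′-box, chr12:107093623-107093648, plus strand: accggcacctCACGTTtctgaagtgt
CLOCK E′-box, chr4:55546104-55546129, minus strand: accactcgggCACGTTtggagcagcg
PER2 E′-box, chr2:238288792-238288817, minus strand: cgcgcgcggtCACGTTttccactatg
PER2 D-box, chr2:238288921-238288948, minus strand: catgtgcgtcTTATGTAAaaagagcgac
TEF D-box, chr22:41368070-41368097, plus strand: atggaaactgTTATGTAAcaggaccaca
NFIL3 D-box, chr9:91423467-91423494, plus strand: cagcaaaagtTTATGTAAtgaatgcccc
DBP E-box, chr19:48634551-48634576, minus strand: caggcgtcagCACGTGactcggccct

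Each replicate had its own peak list, with 245736 peaks for replicate 1 and 259745 for replicate 2. The peak lists give no read counts, so the depth of each library is not known from them. Peak strength is given as the deposited fold enrichment, a ratio of the reads stacked at the highest base of a peak to the background, each with 1 added. The background was 3.35 such reads in replicate 1 and 3.52 in its counterpart. The height, the number of stacked reads itself, followed from that ratio and has a 95% Poisson interval that covers counting error only. Overlapping peaks of both replicates were merged into 279030 regions, of which 77.1% held a peak in both. Of the luminal breast markers, 8 of 8 had a TSS peak in both replicates, beside 79.5% of all protein-coding genes. In replicate 1 their fold enrichments ran from 31.3 for ESR1 to 140 for KRT8, with GATA3 at 48.3. The 4 basal or mesenchymal markers also had one, at fold enrichments of 5.29 to 52.2 in replicate 1, so the 2 ranges overlapped. The highest of these, VIM, lay above ESR1 and GATA3. The blood markers PTPRC, CD3E and SPI1 had no TSS peak.

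The clock loci held 197 regions. Of these, 152 were called in both replicates (77.2%, 95% Wilson interval 70.8 to 82.5%), beside the 77.1% of all regions. A further 16 were called in replicate 1 only and 29 in replicate 2 only. The regions of a single replicate were weak, with a median fold enrichment of 3.91 and a maximum of 5.52 in replicate 1, and 3.98 and 6.41 in replicate 2. Regions of both replicates had medians of 15.1 and 15.5. Across the 152 shared regions, the log2 ratio of replicate 2 to replicate 1 had a median of 0.04 and an SD of 0.26, and 142 regions lay within 0.5 of 0. The rank correlation of fold enrichment between the replicates was 0.975 over the clock regions and 0.950 over all 215195 shared regions, as a description across regions that come from the same pair of libraries. The plot of both replicates shows the regions along the diagonal, with those of a single replicate at the weak end.

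**Figure D1:**
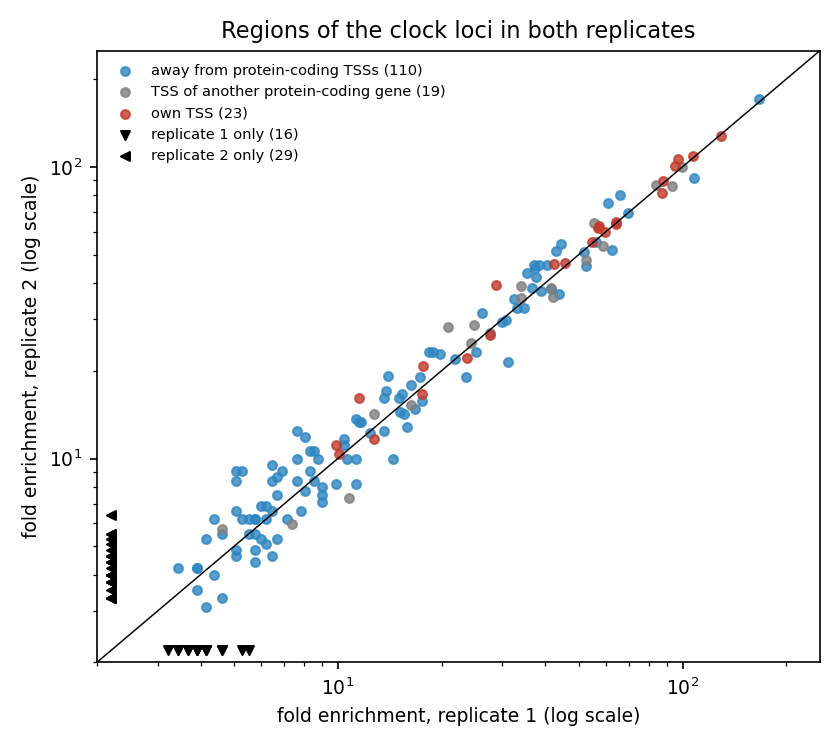
Fold enrichment of each region at the clock loci in replicate 1 (horizontal, log scale) and replicate 2 (vertical, log scale), with 152 regions called in both replicates coloured by their distance class and the line of equality drawn. Triangles at the edges are the 16 and 29 regions called in replicate 1 or replicate 2 only, none of which exceeds a fold enrichment of 6.41.

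All 10 clock genes had a peak within 1 kb of an annotated TSS of their own in both replicates. The same held for 79.5% of all protein-coding genes, so a TSS peak is what most genes show. The strength of these peaks varied within the clock. The strongest TSS peak of PER2 had 4.49 times the fold enrichment of that of CLOCK in replicate 1 and 3.25 times in replicate 2. The median over the 10 members was 87.4 in replicate 1 and 85.4 in replicate 2, beside 51.3 and 52.6 over all protein-coding genes with a TSS peak, and 8 of 10 members lay above the median of all genes. This measure takes the strongest peak at any annotated TSS of a gene, and these number 1 in NFIL3 and 23 in BMAL1. At the most upstream TSS of each gene, the member median was 64.2, with no median over all genes beside it. By the strongest peak at any TSS, the order of the members was the same in both replicates: PER2, BMAL1, PER1, DBP, TEF, PER3, CRY1, CRY2, NFIL3 and CLOCK. Between neighbours in this order, the values of both replicates overlapped only for PER1 and DBP. By the wider counting intervals, PER3 and CRY1 were the only neighbours set apart in both replicates. The plot of TSS peaks shows the values of both replicates with these intervals.

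**Figure D2:**
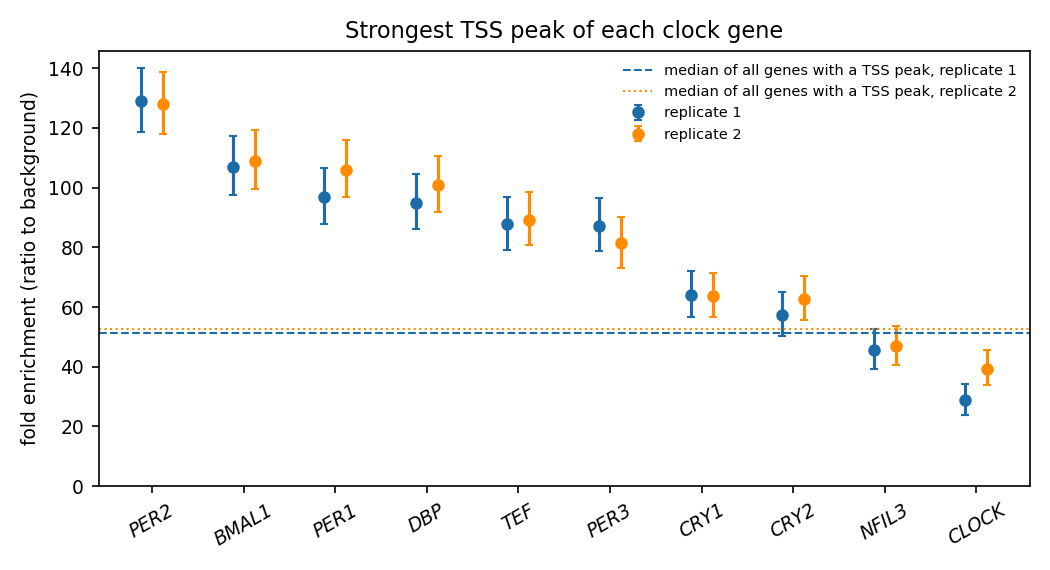
Fold enrichment of the strongest peak within 1 kb of an annotated TSS of each clock gene (vertical axis, ratio to background), in replicate 1 (blue) and replicate 2 (orange), with error bars from the 95% Poisson interval of the height. Dashed and dotted lines mark the medians of all protein-coding genes with a TSS peak, 51.3 and 52.6; NFIL3 and CLOCK lie below them and the other 8 members above.

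The activators of the loop, CLOCK and BMAL1, stood near opposite ends of the order. CLOCK is a basic helix-loop-helix PAS protein. Its TSS region (chr4:55545636-55547540) had a fold enrichment of 28.8 in replicate 1 and 39.4 in replicate 2, with heights of 124 (95% interval 103 to 148) and 177 (152 to 205). It was the weakest of the 10 in both replicates and differed more between them than any other member (log2 ratio of 0.45). BMAL1, the partner of CLOCK, is the member whose loss alone abolishes behavioural rhythms in mice. Its TSS region (chr11:13276874-13278347) had values of 107 and 109, with heights of 462 (421 to 506) and 493 (450 to 539). Among the strongest TSS peaks of all protein-coding genes, 1 per gene, these placed BMAL1 at percentiles of 86.6 and 87.0, and CLOCK at 26.8 and 37.2.

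The PER genes encode scaffold proteins that bind the CRY proteins and the casein kinases. PER2 had the strongest TSS peak of the clock genes, at 129 and 128 (heights 560 and 577), in a region 6639 bp wide (chr2:238284863-238291501). PER1 followed at 96.9 and 106, and PER3 at 87.2 and 81.4. The strongest PER1 peak was not at the most upstream TSS. It lay in a region (chr17:8151762-8153431) whose midpoint is 3910 bp downstream of the gene start, over the promoter that RefSeq gives for PER1 (chr17:8152355-8152654). The region at the gene start itself (chr17:8155143-8157367), which holds the PER1 stretch shown above, had 56.8 and 61.7.

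The CRY genes encode flavoproteins that block CLOCK and BMAL1 directly. CRY1 had a TSS peak of 64.0 and 63.7 (heights 277 and 287), in a region 2665 bp wide at the gene start. CRY2 had 57.3 and 62.6 (heights 248 and 282), in a region 764 bp wide whose midpoint lies 12716 bp inside the gene. This midpoint is 1146 bp upstream of the nearest annotated TSS, so the region lies near that TSS without covering it. Within 100 bp of a TSS, the strongest CRY2 peak had 54.9 (mean of both replicates). At the gene start CRY2 had 54.5 and 55.3. Thus, by the strongest peak at any TSS, both CRY genes stood below the 3 PER genes in each replicate. At the most upstream TSS of each gene, PER1 (59.3, mean of both replicates) lay below CRY1 (63.8).

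The D-box factors spread over the order. DBP and TEF are related PAR bZIP activators. DBP had 95.0 and 101 (heights 412 and 457), and its region (chr19:48636174-48638878) straddled the gene start. This region also lies at a TSS of the neighbour CA11, so the peak that sets the rank of DBP cannot be assigned to either gene. TEF had 87.7 and 89.3 at an internal promoter whose region has its midpoint 14104 bp downstream of the gene start, and 64.2 and 64.8 at the gene start. NFIL3, the bZIP repressor that competes for the same sites, had 45.6 and 46.9 (heights 197 and 211), and was the only one of the D-box factors below the median of all genes.

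Peak height can also follow the number of copies of a chromosome segment, and copy number was not measured in these peak lists. The median of the strongest TSS peaks of the genes on its chromosome arm is therefore set beside each member. Relative to its arm, PER2 stood at 2.75 and 2.70 times the median in the 2 replicates, BMAL1 at 2.70 in both, and PER1 at 2.48 and 2.71. DBP followed with 1.90 and 1.92, PER3 with 1.79 and 1.64, TEF with 1.71 and 1.66, CRY2 with 1.45 and 1.55, and CRY1 with 1.20 and 1.13. NFIL3 (0.857 and 0.871) and CLOCK (0.564 and 0.762) were below their arms as well. The 3 highest members and the 2 lowest were therefore the same by either measure. Focal gains or losses at single loci were not tested.

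Other clock genes were less even. Of 16 further genes of the pathway, 16 had a TSS peak in both replicates. Among the strongest were BHLHE40, an E-box repressor, with 97.1 and 100, and BTRC, a ubiquitin ligase subunit that targets PER proteins, with 98.5 and 94.9. The lowest was BMAL2, a paralog of BMAL1, with 5.75 and 4.42, against 107 and 109 for BMAL1. NPAS2, the paralog of CLOCK, had 14.7 and 15.5 and so also lay below its relative, at 28.8 and 39.4.

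The number of regions differed more between the clock loci than the TSS peaks did. PER2 had 28 regions in both replicates, PER1 22, CRY1 21, BMAL1 20, TEF 18, DBP 16 and CRY2 13. CLOCK and NFIL3 had 5 each and PER3 had 4. Locus length did not order them: the CLOCK locus spans 159 kb and that of PER1 56.0 kb. Counted per 10 kb of locus, PER1 had 3.93 regions, DBP 3.38, PER2 3.25 and TEF 2.50, beside a median of 1.16 over all protein-coding loci. CLOCK had 0.314 and PER3 0.396. In percentiles of all protein-coding genes, PER1 stood at 96.7, DBP at 93.3, PER2 at 92.3 and TEF at 83.1, whereas PER3 stood at 16.2 and CLOCK at 12.5. The median of the 10 members was 63.2, so the clock genes as a list were not far from the middle of all genes and were spread over nearly its whole range.

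The share of bases under shared regions gave a similar picture. It was 50.5% of the PER1 locus, 37.9% of PER2, 35.9% of DBP and 19.2% of TEF. The values were 11.0% for CRY2, 9.71% for CRY1, 6.14% for NFIL3, 5.69% for BMAL1, 3.14% for PER3 and 2.18% for CLOCK, with a median of 6.07% over all protein-coding loci. BMAL1 had 20 regions, but over a locus of 151 kb these came to 1.33 per 10 kb, a percentile of 55.6. By covered bases BMAL1 stood at a percentile of 47.9. PER1 and DBP are short genes, at 16.0 and 7.35 kb, whose loci hold further TSSs of neighbours.

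**Figure D3:**
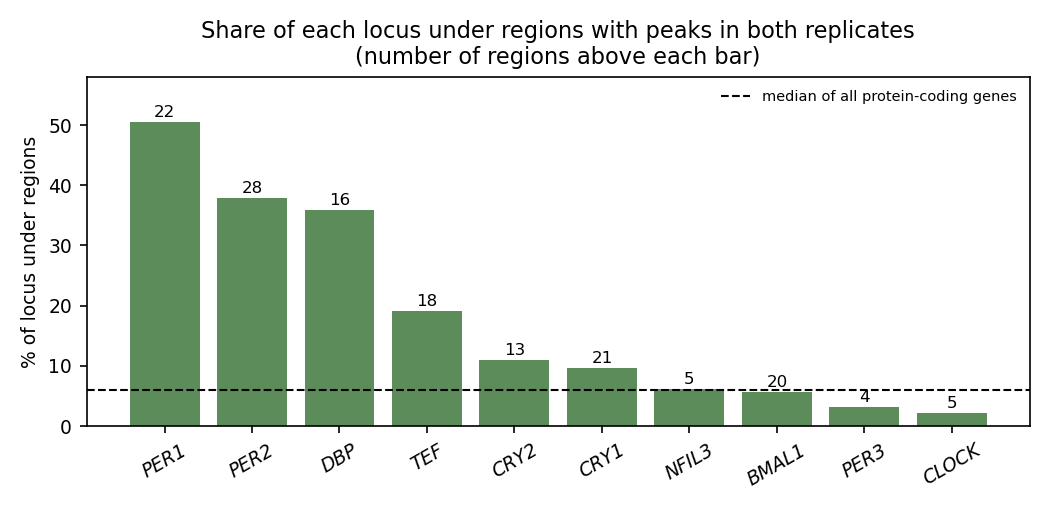
Percentage of each clock locus (gene body with 20 kb either side) that lies under regions called in both replicates, ordered from high to low, with the number of such regions above each bar. The dashed line is the median of all protein-coding genes, 6.07%; PER1, PER2 and DBP reach 35.9% or more and CLOCK 2.18%.

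Of the 152 shared regions, 23 lay within 1 kb of a TSS of the member itself, 19 at the TSS of another protein-coding gene and 110 at neither. Regions at an own TSS had a median fold enrichment of 54.5 in replicate 1 and 55.3 in replicate 2, those at another TSS 34.1 and 35.4, and the rest 10.5 and 10.8. The median at an own TSS was 4.35 ± 0.0555 times (SD, n = 2) that of the other 129 regions. This ratio was 1.97 with a TSS distance of 3 kb, 1.44 with only the 50000 strongest peaks of each replicate, and 7.80 by the −log10 q. Own TSS regions were also wider, with a median of 1900 bp against 783 and 400 bp in the other classes. In 300 bp around their midpoints they held 63.7% G and C, against 65.3% at other TSSs and 52.3% elsewhere. Of the 110 regions away from protein-coding TSSs, 6 lay within 1 kb of an annotated noncoding TSS.

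At least 2 separate regions within 1 kb of an own TSS were found at 5 members, beside 44.0% of all protein-coding genes. At least 3 were found at 4 members, namely PER1 with 6, PER2 with 4, and CRY2 and DBP with 3 each. Across all protein-coding genes, 22.8% had at least 3. Such a region need not cover a TSS, and 2 may share one, so these are not counts of open promoters. In PER2, the regions with midpoints 1490 bp downstream and 915 bp upstream of the nearest TSS lie by the same TSS, which neither covers. The 6 regions of PER1 were unlike one another. That at the strongest promoter had 96.9 and 106, that at the gene start 56.8 and 61.7, and the other 4, which lie over the later exons, had between 9.89 and 16.1. These exonic regions were wide, up to 3485 bp, and low. The 4 regions of PER2 had 129, 59.6, 27.6 and 17.5 in replicate 1 and 128, 59.9, 26.5 and 16.6 in replicate 2. The 3 of DBP fell from 95.0 and 101 at the gene start to 42.3 and 46.4 and then 23.7 and 22.1 inside the gene. TEF had 2 such regions and the remaining 5 members 1 each.

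The map of the loci shows how the other regions lie. PER2 carried the strongest of all 152 regions in an intron (chr2:238259243-238259993), 30484 bp downstream of the gene start and 3357 bp from the nearest annotated TSS. Its fold enrichment was 167 in replicate 1 and 171 in replicate 2 (heights 724 and 773), above the 129 and 128 of the PER2 TSS region. This placed the intronic region at a percentile of 99.8 among all peaks in the list of each replicate. The TSS region is 6639 bp wide and the lists hold no summits, so where in it the maximum lies is not known. The intronic region holds an E-box 30767 bp from the gene start. More intronic regions of PER2 lay around it, among them 1 at 62.6 and 51.7 (chr2:238256476-238257114) and 1 at 56.1 and 55.1 (chr2:238269575-238270237).

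**Figure D4:**
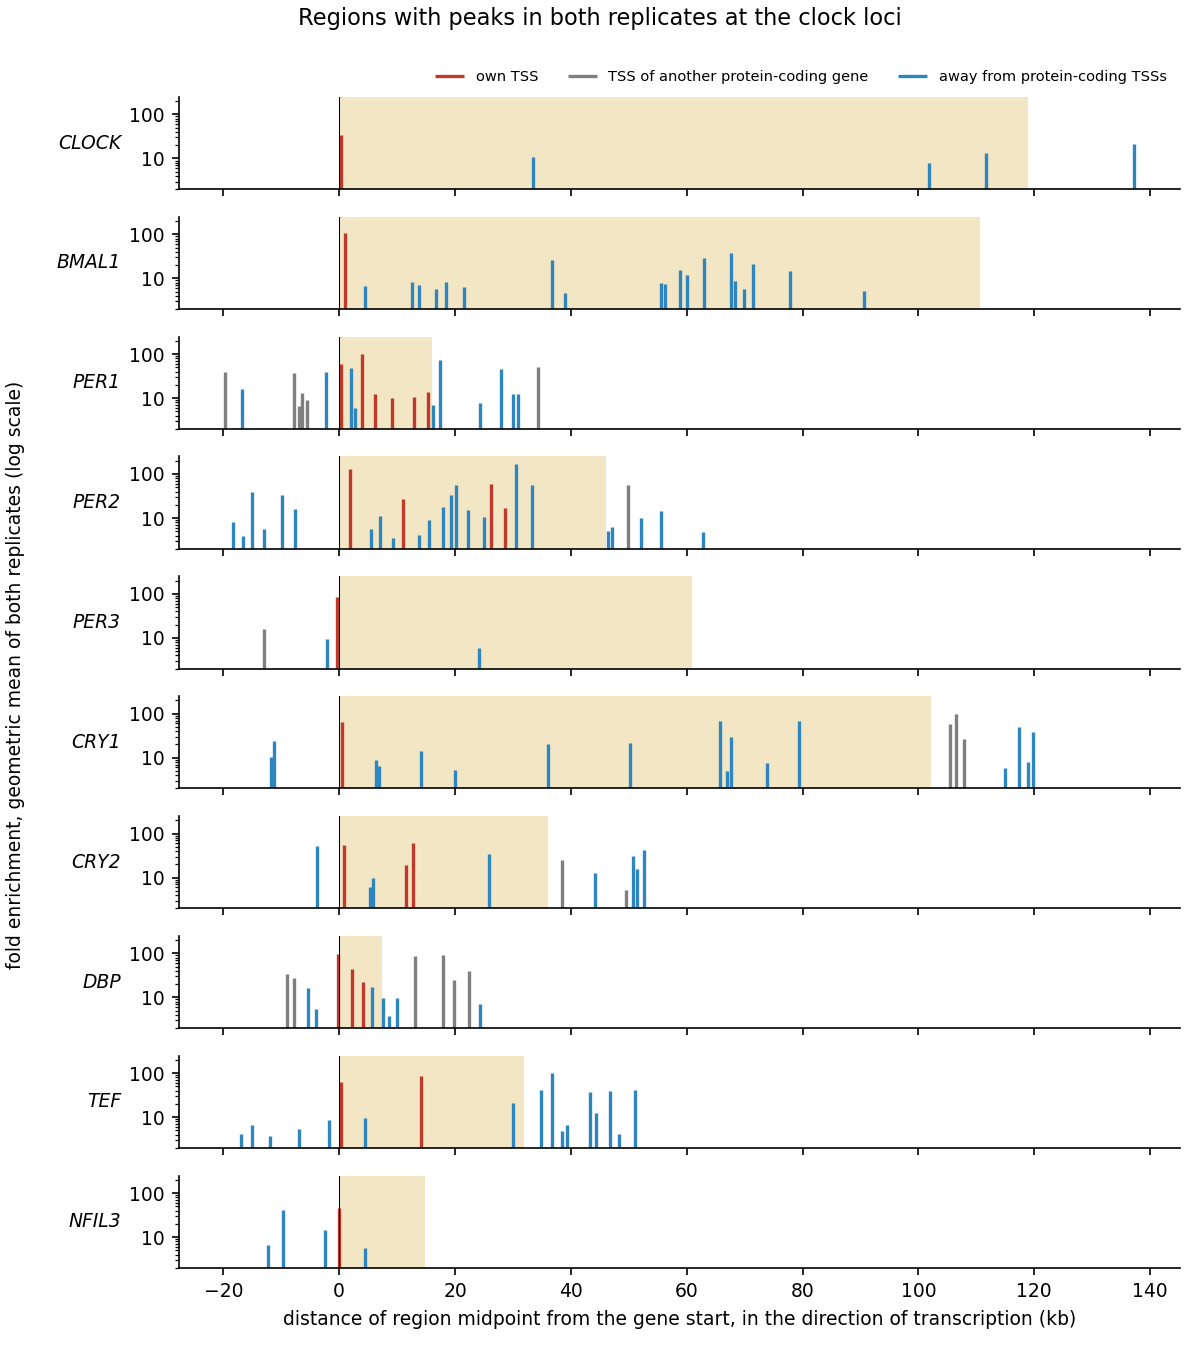
Regions called in both replicates at the 10 clock loci, 1 row per gene, by the distance of their midpoint from the gene start in kb in the direction of transcription (horizontal) and the geometric mean of the fold enrichments of both replicates (vertical, log scale). Red lines are regions at a TSS of the gene, grey lines at the TSS of another protein-coding gene, blue lines at neither, and the shaded span is the gene body; the tallest line, in the PER2 row, is the intronic region with 167 and 171.

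A region away from protein-coding TSSs exceeded the strongest TSS peak in both replicates at 3 of 10 members, PER2, CRY1 and TEF, and at 39.3% of all genes with a TSS peak. In TEF it lay beyond the 3′ end of the gene (chr22:41403657-41404334) with 108 and 91.3, against 87.7 and 89.3 at the TSS, a margin that in replicate 2 was within the counting intervals. In CRY1 it was intronic (chr12:107013994-107014486) with 69.3 and 69.2, against 64.0 and 63.7, and there too the intervals of the heights overlapped. Only the PER2 region was clear of its TSS peak by counting error in both replicates.

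CRY1 had a second strong intronic region (chr12:107027428-107028100), 65785 bp from the gene start, with 60.7 and 75.4. It differs from the TSS regions in base content, with 34.7% G and C in the 300 bp around its midpoint. It contains 2 ROREs that face each other on opposite strands, 50 bp apart from start to start, in the CRY1 stretch shown above. It was the only one of the 152 clock regions with more than 1 RORE, and 0.206% of all shared regions had as many. Another intronic region of the same gene (chr12:107057038-107057870), with 18.4 and 23.2, holds a D-box.

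BMAL1 had 19 shared regions away from its TSS, and all of them lay within the gene body. The strongest had 38.9 and 37.6 (chr11:13344016-13344587), 31.1 and 21.4 (chr11:13313100-13313657) and 29.9 and 29.4 (chr11:13339216-13340094). Each was well below the 107 and 109 of the TSS region. CLOCK, with a gene body of similar length (119 kb against 111 kb), had 3 shared regions in the body away from the TSS, with values of 6.44 to 13.6 in replicate 1 and 9.51 to 12.4 in replicate 2. Its strongest region away from the TSS (chr4:55409441-55409807) lay in the downstream flank and had 18.9 and 23.2.

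PER3 was the barest of the PER loci. Apart from the TSS region and 1 region at the TSS of VAMP3, a vesicle fusion protein, it had a region centred 2059 bp upstream of the gene start with 8.74 and 9.95 and an intronic one with 5.52 and 6.19. NFIL3 had its second strongest region 9620 bp upstream of the gene start (chr9:91433222-91433683), with 38.4 and 46.2 against 45.6 and 46.9 at its TSS. CRY2 had regions upstream of the gene (51.8 and 51.1), in the body (34.7 and 32.9) and in the downstream flank (40.5 and 46.2). At PER1, a region just beyond the 3′ end (chr17:8138172-8139927) reached 66.0 and 79.8.

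Part of the open chromatin of these loci belongs to neighbouring genes. In the downstream flank of CRY1, the TSS region of MTERF2, a mitochondrial transcription factor, had 99.4 and 100, above the CRY1 TSS. HES6, a Hes family factor, had 58.9 and 53.5 in the downstream flank of PER2. At PER1, 6 regions lay at the TSSs of VAMP2, TMEM107, HES7, ALOXE3 and an unnamed protein-coding gene that shares regions with VAMP2. DBP also had 6 such regions, at the ribosomal protein gene RPL18, the sphingosine kinase gene SPHK2, FAM83E and CA11, with fold enrichments of up to 93.4 and 86.9. Regions shared by close TSSs cannot be assigned to 1 gene.

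Clock motifs were searched in the whole of the regions at own TSSs, 48.7 kb in all for the 10 members. The length searched differs between genes: it was 13.6 kb for PER1 and 12.2 kb for PER2, against 1.47 kb for BMAL1 and a median of 1.58 kb over all genes with such a region. Longer regions hold more matches of any motif, so counts per kb are given too. An E-box was found at 6 of 10 members, PER1, PER2, PER3, CRY2, DBP and TEF, and at 32.9% of all genes. Their 16 E-boxes amount to 0.329 per kb, beside 0.233 per kb over all own TSS regions. CLOCK, BMAL1, CRY1 and NFIL3 had none in these regions. The E′-box was found at 8 of 10 members, the exceptions being PER3 and NFIL3, and at 30.4% of all genes, at 0.226 per kb against 0.193.

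D-boxes were found at 4 members, PER2, PER3, TEF and NFIL3, and at 3.43% of all genes. There were 5 of them, or 0.103 per kb beside 0.0181 per kb. In PER2, 1 lies 108 bp upstream of the nearest TSS and the other 2807 bp downstream of one. In PER3 it lies 174 bp upstream of the gene start, in TEF 750 bp and in NFIL3 352 bp downstream of it. TEF and NFIL3 are themselves D-box factors, while DBP had no D-box in its regions.

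The RORE was found at 6 members, BMAL1, PER1, PER3, CRY2, DBP and NFIL3, and at 10.9% of all genes, at 0.123 per kb against 0.0583. In BMAL1 and in NFIL3 it lies 6 bp upstream of a TSS, and in CRY2 7 bp downstream of one. These 3 are among the sites printed above, and their flanks differ. The CRE was found at PER2 only, 291 bp upstream of the gene start, and at 5.36% of all genes. Of the 39 matches, 35 lay within 1 kb of a TSS of the gene. This follows largely from the search, which covered only regions within 1 kb of such a TSS. As the plot of motif positions shows, 15 of the 16 E-boxes lay upstream of the nearest TSS. The share of E-boxes upstream was not computed over all genes, so it cannot be called particular to the clock genes. These matches describe the letters in the open regions, and binding was not measured.

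**Figure D5:**
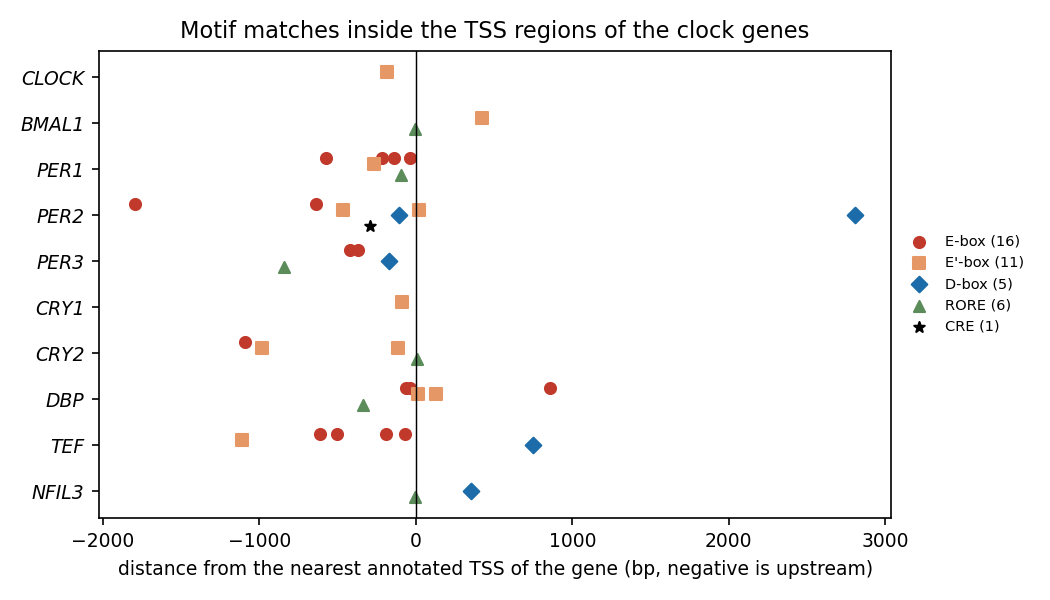
Positions of motif matches within the open TSS regions of the 10 clock genes (rows), as the distance in bp from the nearest annotated TSS of the gene, negative upstream. Symbols are the E-box (16 matches), E′-box (11), D-box (5), RORE (6) and CRE (1), and the 4 genes with a D-box are PER2, PER3, TEF and NFIL3.

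In a window of fixed length, 300 bp around the midpoint of each region, an E-box lay in 4 of the 23 own TSS regions (17.4%, 95% Wilson interval 6.98 to 37.1%), beside 6.24% of all shared regions at protein-coding TSSs. Away from protein-coding TSSs, it lay in 4 of the 110 clock regions (3.64%), beside 4.54% of all such shared regions. Over all classes, it lay in 9 of the 152 clock regions (5.92%, interval 3.15 to 10.9%), beside 4.79% of all shared regions. No E′-box lay in the 23 own TSS windows, which allows a share of up to 13.0%, beside 4.99% of all shared regions at protein-coding TSSs. No D-box lay in the 152 windows, which allows a share of up to 1.97%, and 1.18% of all windows held one. The D-boxes of the TSS regions thus lay away from the midpoints of wide regions. In a window of 100 bp the E-box share was 3.29%. Over whole regions the shares were 13.2% for the E-box and 3.29% for the D-box, beside 8.45 and 1.71% of all shared regions. The clock regions were wider, however, with a median of 502 bp against 363 bp over all shared regions. Per kb, the E-box had 0.195 matches against 0.184, and the D-box 0.0449 against 0.0333. RefSeq promoters, which run from 250 bases before to 50 bases after a gene start, allowed a comparison at 1 length and a fixed place. The 10 members had 16 promoters. An E-box lay in 3 (18.8%, beside 7.26% of all 35116 promoters), an E′-box in 4 (25.0%, beside 5.34%), a D-box in 1 (6.25%, beside 0.886%) and a RORE in 3 (18.8%, beside 1.85%). With 16 promoters the intervals are wide: that of the RORE share ran from 6.59 to 43.0%.

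Promoters of the members were rich in G and C. The promoter at the gene start had 80.7% in PER3 and 83.0% in NFIL3, whose other, upstream promoter had 61.0%. The single PER2 promoter, which RefSeq places inside the annotated gene (chr2:238288561-238288860), had 80.3%, beside a median of 58.7% over all promoters. The lowest were the upstream promoters of CRY2 (46.3%) and BMAL1 (49.3%), each of which has a second, richer RefSeq promoter downstream with 70.3 and 70.0%. The richer promoters of NFIL3, BMAL1 and CRY2 are also those that hold the RORE. For BMAL1 the open region covers the richer promoter and not the upstream one.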

How the data were processed

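The 2 biological replicates were untreated CAMA-1 cells profiled by ATAC-seq. Per the labels and the methods, the authors trimmed reads with Trim Galore 0.6.5, aligned them to hg38 with Bowtie2 2.3.5.1 and called peaks per replicate with MACS2 2.2.6. The peak calling settings and the handling of duplicate reads are not given in the sources used here. The deposited values were a score per peak, the fold enrichment over background (a ratio) and 2 columns of significance, −log10 p and −log10 q, all written by the peak caller for the authors. The lists held 0 duplicate lines and 0 peaks beyond the ends of hg38 chromosomes. They hold no read counts or summits, and precision was taken from peak heights.

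Fold enrichments were multiples of a step (0.230 and 0.221) in 100% of peaks within a tolerance of 0.001 of a step, which gave the heights. Peaks overlapping by at least 1 bp were merged into regions, and the strongest peak stood for its region in each replicate. Gene bodies and TSSs came from GENCODE release 44. Promoter sequences came from RefSeq (GRCh38), in which all 10 members were matched. Chromosome arms were split at approximate centromere positions. Motifs were exact matches on both strands, and intervals are 95% Wilson or Poisson intervals. A count of 0 was read as allowing 3 counts.

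With 1 condition, no test was run and no samples were compared. The members, the further clock genes, the markers and the motifs were chosen with earlier results of these data known. All members were named, with the 3 strongest of the further clock genes. The value of 1 of these and of 1 blood marker is not reported here. BMAL2, NPAS2, the named regions and the printed sequences were chosen after their values were seen. Results were recomputed with a minimum −log10 q of 10, with the 50000 strongest peaks of each list, a reciprocal overlap of 50%, TSS distances of 100 bp and 3 kb, the most upstream TSS of each gene, other flanks, windows, measures and reference genes, and without each replicate in turn. The functions were checked on 5000 simulated peaks, where 6 of 6 checks were recovered. Python 3.11.15, numpy 2.4.6, pandas 2.3.3, scipy 1.17.1 and matplotlib 3.10.9 were used. The other assays and models of the study were not analysed here.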

Additional observations from a re-analysis of the deposited data

How the results depend on the processing

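All 10 clock genes kept a TSS peak in both replicates under each alternative that used both. Without either replicate, all 10 had a TSS peak in the remaining one. Over all results, 22 of 56 alternatives left their result within the spread between replicates or, for counts, within 1.5 times. The number of shared regions was 56 with the 50000 strongest peaks of each replicate, 79 in gene bodies alone and 237 with flanks of 50 kb, against 152. The share of peaks found again in the other replicate was 87.8% (91.2% and 84.5%, beside 90.2% and 84.7% of all peaks). It was 93.9% at a minimum −log10 q of 10, 97.5% with the 50000 strongest peaks and 78.8% with a reciprocal overlap of 50%, and 2 alternatives without a replicate gave no such share.

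The ratio of own TSS regions to the others, 4.35, was 3.45 at a minimum −log10 q of 10, 1.44 with the 50000 strongest peaks, 4.29 and 1.97 at TSS distances of 100 bp and 3 kb, 7.80 by −log10 q, 5.58 in gene bodies, 4.56 with flanks of 50 kb, and 4.18 to 4.91 without either replicate. The median density percentile, 63.2, was 69.6 at a minimum −log10 q of 10, 82.0 with the 50000 strongest peaks, 58.3 in gene bodies, 69.8 with flanks of 50 kb, 73.2 among all annotated genes, 68.5 by covered bases, and 64.7 to 69.3 without either replicate.

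The E-box share, 5.92%, was 3.29% in windows of 100 bp, 13.2% over whole regions, 6.82% at a minimum −log10 q of 10, 7.59% in gene bodies and 6.63 to 6.95% without either replicate. The D-box share rose from 0 to 3.29% over whole regions, where more bases were searched. The rank correlation was 0.976, 0.974, 0.970 and 0.971 at a minimum −log10 q of 10, a reciprocal overlap of 50%, gene bodies and flanks of 50 kb. The median of the strongest TSS peaks, 86.4, was 64.2 at the most upstream TSS of each gene. There PER1 had 59.3, CRY2 54.9 and TEF 64.5. The strongest peaks of PER1 and TEF lie at internal TSSs, and that of CRY2 lies within 1 kb of one without covering it. With a TSS distance of 100 bp, CRY2 also had 54.9. Where no reason is given, the cause was not tested. No paired analysis was possible because there was 1 condition. Without read counts, differences in height within the Poisson intervals were not resolved, and copy number was not measured.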
